A study of Arabidopsis thaliana with 2 samples.

Results

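The genes described here are 31 genes with a transporter or channel name among 1602 Arabidopsis genes listed with a binding site of LHY. The products of 21 were classed as moving a solute across a membrane. The other 10 were classed as binding metals, regulating a channel or only sharing a word with the rule. A listed gene was taken when the name the authors gave it held "transport", "channel", "antiporter", "symporter", "aquaporin", "intrinsic protein" or "MATE efflux". By function the names cover water, potassium, anions, nitrogen, sugars, plastid metabolites, metals, efflux of organic compounds and lipids, besides 4 genes of unrelated function. All 31 are protein-coding nuclear genes in the reference annotation. Being listed was a condition of the choice and is not a result.

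LHY is a MYB-type transcription factor that peaks around dawn and acts in the circadian clock, mostly as a repressor of genes expressed later in the day. The plants were 2-week-old seedlings of the accession Col-0, with no transgene or mutation named in the labels, sampled 2 h after dawn. DNA recovered with an antiserum to LHY was sequenced as 1 library pooled from 4 immunoprecipitations, and 1 library of input DNA was the control. No library was replicated, so no value below has a replicate error. Chromatin from plants without LHY was not analysed here. Read depth is unknown.

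Transporters set which solutes cross the membranes of a plant cell. Channels and aquaporins let ions or water pass down a gradient. Antiporters and symporters couple the movement of a solute to that of a proton or another ion, and ABC transporters use ATP. In leaves many of these processes follow the day, among them water uptake, stomatal movement, the export of sugar and the exchange of metabolites between plastid and cytosol.

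Peak strength is the −log10 q that the authors' peak caller gave, a larger value meaning a smaller q. Each of the 31 genes had 1 peak, and 146 of all 1602 listed genes (9.11%) had more than 1. The exact Clopper-Pearson interval for 0 of 31 reaches 11.2% and holds 9.11%, so a difference is not shown. The strength ran from 3.41 to 90.4, with a median of 11.7 and quartiles of 6.80 and 20.1. Over all listed genes the median was 10.3 and the quartiles were 6.80 and 18.3. Above the median of all listed genes lay 19 of the 31 (61.3%), 9 lay above its upper quartile and 9 at or below its lower quartile. The genes thus spread over the whole list, and no test of a difference from it was made. The value was not unique for 18 of the 31, since the same −log10 q was listed for at least 1 other peak. The value 6.80 alone occurred at 70 peaks, so equal values do not identify a shared site. None of the 31 had the same value as a listed gene within 5 places of it in the annotation.

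**Figure D1:**
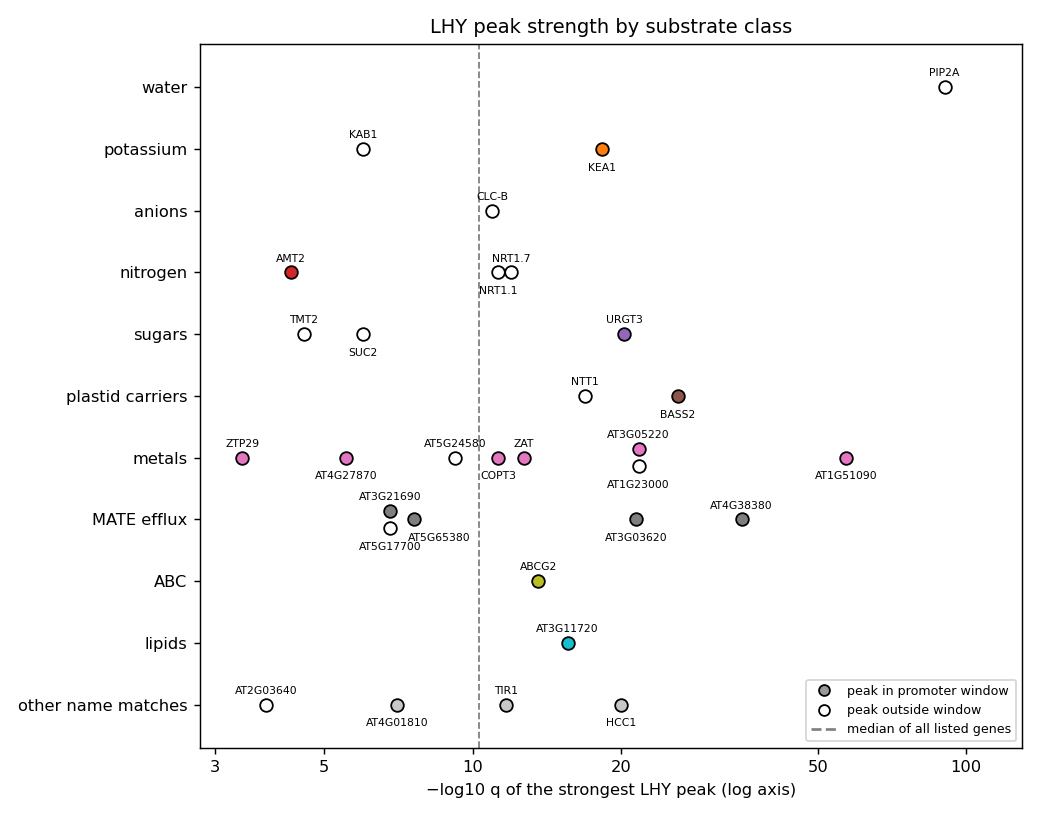
The −log10 q of the strongest LHY peak (log axis) is plotted for each of the 31 genes by substrate class. Filled points have their peak in the promoter window (1000 bp before to 200 bp after the transcription start), open points outside it, and the dashed line marks the median of all listed genes, 10.3. PIP2A stands highest at 90.4, and metals and MATE efflux each span weak and strong peaks.

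The strongest peak belonged to a water channel. PIP2A (AT3G53420), also called PIP2;1, is an aquaporin of the plasma membrane that carries water and hydrogen peroxide. Its peak had a −log10 q of 90.4, rank 35 of 1602, and lay 1567 bp upstream of the transcription start site (TSS). The phase given for its expression in constant light was 0 h, at subjective dawn. PIP2A was the only aquaporin that the rule took. In the reference annotation 35 genes carry an aquaporin name, and 2 of them were listed (5.71%, exact 95% Clopper-Pearson interval 0.70 to 19.2), near the 5.38% of all nuclear protein-coding genes. Beside PIP2A this was DELTA-TIP, an aquaporin of the vacuolar membrane with a weak peak (6.0 at −705 bp, phase 5 h).

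Potassium and anion transport were represented by 3 genes. KEA1 (AT1G01790), a potassium-proton antiporter of the chloroplast envelope, had 18.3 at −469 bp and a phase of 18 h. KAB1 (AT1G04690), a regulatory beta subunit of potassium channels that forms no pore itself, had 6.0 at −2492 bp and no phase. CLC-B (AT3G27170), an anion transporter of the vacuolar membrane, had 10.9 at −1332 bp and a phase of 20 h. Only KEA1 of these lay in the promoter window, which extends 1000 bp upstream and 200 bp downstream of the start site.

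Nitrogen transport was represented by 2 nitrate transporters and 1 ammonium transporter. NRT1.1 (AT1G12110) takes up nitrate at the plasma membrane and also acts as a nitrate sensor. Its peak had 11.3 at −1931 bp, and no phase was given. NRT1.7 (AT1G69870) loads nitrate from old leaves into the phloem, and had 11.98 at −1758 bp with a phase of 14 h. AMT2 (AT2G38290), an ammonium transporter, had a weak peak of 4.27 at 70 bp downstream of the TSS and no phase. Both nitrate transporter peaks therefore lay far upstream at middling strength, and the ammonium transporter peak lay at the gene start at low strength.

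Each nitrate transporter gene had a listed protein-coding gene immediately beside it. AT1G69860, beside NRT1.7, had 13.2 at −4574 bp, and AT1G12120, beside NRT1.1, had 7.64 at −271 bp. AT1G69860 is itself named as a major facilitator protein and has a transport activity in its description. The values differ from those of the transporters, so the peaks were listed as separate. Peak intervals were not analysed here.

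Among sugar transporters the strongest peak was not at a sugar-export gene. URGT3 (AT5G42420), named in the annotation as a transporter of the nucleotide sugars UDP-rhamnose and UDP-galactose, had 20.3 at 111 bp downstream of the TSS and a phase of 8 h. SUC2 (AT1G22710), the proton symporter that loads sucrose into the phloem, had 6.0 at −6621 bp and a phase of 4 h. TMT2 (AT4G35300), which moves hexoses into the vacuole, had 4.54 at −1008 bp, just outside the promoter window, and no phase. SUC2 and TMT2 thus ranked 1302 and 1494 of 1602, and the peak of SUC2 was among the most distant of the 31.

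Both genes classed as carriers of plastid metabolites had peaks above the median of all listed genes. BASS2 (AT2G26900), listed as a sodium and bile acid symporter and known as the plastid carrier that imports pyruvate with sodium, had 26.0 at 7 bp downstream of the TSS and a phase of 9 h. NTT1 (AT1G80300), which exchanges ATP for ADP across the envelope, had 16.9 at −1497 bp and no phase. The authors' functional descriptions placed 5 of the 31 gene products in the chloroplast, namely PIP2A, the MATE protein AT4G38380, BASS2, KEA1 and NTT1. All 5 had peaks of 16.9 or more, the weakest of them ranking 441 of 1602. PIP2A was also placed in the plasma membrane and the vacuole. Strength at the other listed genes placed in the chloroplast was not compared. A location was given for 24 of the 31, so the chloroplast share was 20.8%, against 27.6% of the 742 listed genes with a location. The plasma membrane was named for 9 of the 24 (37.5%, exact interval 18.8 to 59.4, against 18.2%). Among listed genes with a transport activity in their description but no word of the rule in their name, it was 36.7%. A choice by transporter and channel names favours membrane proteins, so the share cannot be read as a trait of LHY binding. The 4 products placed in the vacuole had values from 4.54 at TMT2 to 90.4 at PIP2A, with ZAT (12.7) and CLC-B (10.9) between them.

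Metals formed the largest class, with 8 genes of which 4 encode membrane transporters. ZAT (AT2G46800), also known as MTP1, moves zinc into the vacuole. It had 12.7 at −11 bp and a phase of 23 h. COPT3 (AT5G59040), a copper transporter, had 11.3 at −803 bp. AT4G27870, of the vacuolar iron transporter family, had 5.53 at −68 bp, and ZTP29 (AT3G20870), a zinc transporter of the ZIP family, had the weakest peak of the 31, 3.41 at 81 bp downstream of the TSS. All 4 metal transporter peaks lay in the promoter window, and a phase was given for ZAT alone.

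ZAT lies immediately beside PRR9, a clock gene that is itself strongly bound, in the order of protein-coding genes. The peak listed for PRR9 had 93.1 at −153 bp and its phase was 3 h. The peaks of ZAT and PRR9 thus were listed with different values, and the distance between them was not analysed here. ZTP29 also had a listed gene beside it, WIP4, with 3.81 at −720 bp. No other of the 31 had a listed protein-coding neighbour apart from both nitrate transporters described above.

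The other 4 metal genes were named as heavy metal transport/detoxification proteins, and their descriptions give metal binding and no transporter activity. AT1G51090 had the second strongest peak of the 31, 57.1 at −207 bp, rank 86 of 1602, with a phase of 8 h. AT3G05220 had 21.7 at −147 bp, and AT1G23000 had the same value at −2179 bp, although they lie on chromosomes 3 and 1. AT5G24580 had 9.22 at −6701 bp, the most distant peak of the 31. No phase was given for these last 3 genes. The 4 metal-binding genes had a median of 21.7 and the 4 metal transporters one of 8.39, with ranges of 9.22 to 57.1 and 3.41 to 12.7 that overlap.

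Efflux proteins of the MATE family export organic compounds, among them citrate and secondary metabolites, by exchange with protons or sodium. The rule took 5 of them, none with a substrate in its name. AT4G38380 had 35.1 at −130 bp, the third strongest peak of the 31, and AT3G03620 had 21.4 at −736 bp, both without a phase. The other MATE genes were weaker and all had a phase. AT5G65380 had 7.60 at −430 bp (21 h), AT3G21690 had 6.80 at −916 bp (20 h) and AT5G17700 had 6.80 at −5151 bp (15 h). The MATE genes thus fell into 2 strong peaks with no phase and 3 weak peaks with a phase in the subjective night.

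The remaining 6 genes covered ABC transport, lipids and matches of a word only. ABCG2 (AT2G37360), an ABC transporter of a group that takes part in suberin barriers, had 13.6 at −498 bp. AT3G11720, named for the polyketide cyclase and lipid transport superfamily, had 15.6 at 47 bp downstream of the TSS. HCC1 (AT3G08950), a mitochondrial copper chaperone named for electron transport, had 20.0 at −138 bp. TIR1 (AT3G62980), an auxin receptor whose name refers to inhibitors of auxin transport, had 11.7 at −140 bp and a phase of 11 h. AT4G01810, of the Sec23/Sec24 family of vesicle coat proteins, had 7.02 at −198 bp, and AT2G03640, of the nuclear transport factor family, had 3.81 at −2363 bp. TIR1 alone of these 6 had a phase. Leaving out the 10 genes whose products do not themselves move a solute left 21, with a median of 11.3.

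**Figure D2:**
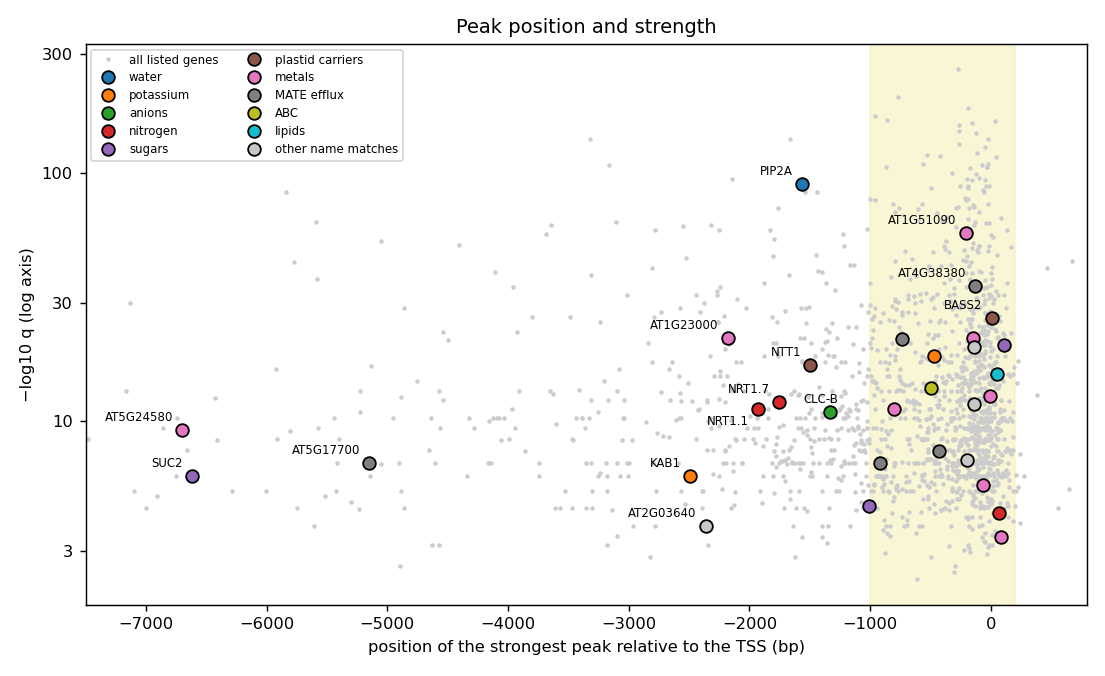
Each point is a gene, placed by the position of its strongest peak relative to the TSS (bp) and its −log10 q (log axis), with all listed genes in grey and the 31 genes coloured by substrate class. The shaded band is the promoter window, 10 listed genes lie beyond the left edge at −7500 bp, and PIP2A stands out as a strong peak outside the window.

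Of the 31 peaks, 19 lay in the promoter window (61.3%, exact 95% Clopper-Pearson interval 42.2 to 78.2). Of all 1602 listed genes, 68.3% had their strongest peak there, which lies inside that interval. The interval treats genes as independent and covers counting error only. The authors assigned each peak to the closest gene facing away from it, so upstream positions are favoured by construction for every gene. The median position was −498 bp, against −408.5 bp over all listed genes.

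Peaks at or downstream of the TSS were found at 5 of the 31 genes (16.1%, against 11.6% of all listed genes). These were BASS2 at 7 bp, AT3G11720 at 47 bp, AMT2 at 70 bp, ZTP29 at 81 bp and URGT3 at 111 bp. A further 7 lay within the 200 bp upstream (22.6%, against 26.7%) and 7 more than 200 and up to 1000 bp upstream (22.6%, against 30.8%). More than 1000 and up to 3000 bp upstream lay 9 (29.0%, against 21.9%), and 3 lay beyond 3000 bp (9.68%, against 8.93%), namely AT5G17700, SUC2 and AT5G24580. Inside the window the median strength was 13.6 and outside it 10.08, while over all listed genes these medians were 10.8 and 9.43. PIP2A was the exception in size, with the strongest peak of the 31 and a position outside the window.

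A phase of expression in constant light was given for 13 of the 31 genes (41.9%, exact 95% interval 24.5 to 60.9), against 38.1% of all listed genes. The phase was taken by the authors from a database and was not measured here. Of the 13 phases, 4 fell at 6 to 11 h (30.8%, exact interval 9.09 to 61.4), the hours that held 45.4% of the phases of all listed genes. In the subjective night, from 12 to 23 h, fell 7 (53.8%, exact interval 25.1 to 80.8, against 32.1%), and 5 of these fell at 18 to 23 h (38.5%, exact interval 13.9 to 68.4, against 14.8%). The share of all listed genes lies inside each of these intervals, close to the lower bound for 18 to 23 h. Among the 21 products that move a solute, 11 had a phase, and the same 5 at 18 to 23 h then made 45.5% (exact interval 16.7 to 76.6), an interval that lies above 14.8%. Their share at 12 to 23 h was 63.6% (exact interval 30.8 to 89.1), an interval that holds 32.1%, and neither share was tested. The 21 products leave out TIR1 and AT1G51090, both with a phase at 6 to 11 h. With both kept, the interval at 18 to 23 h was 13.9 to 68.4 and held 14.8%. For the other phase ranges, the intervals of the 21 products held the shares of all listed genes. No interval was adjusted for the number of ranges and sets examined, so an excess at 18 to 23 h is not shown. The division at 12 h was chosen after the phases were seen.

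**Figure D3:**
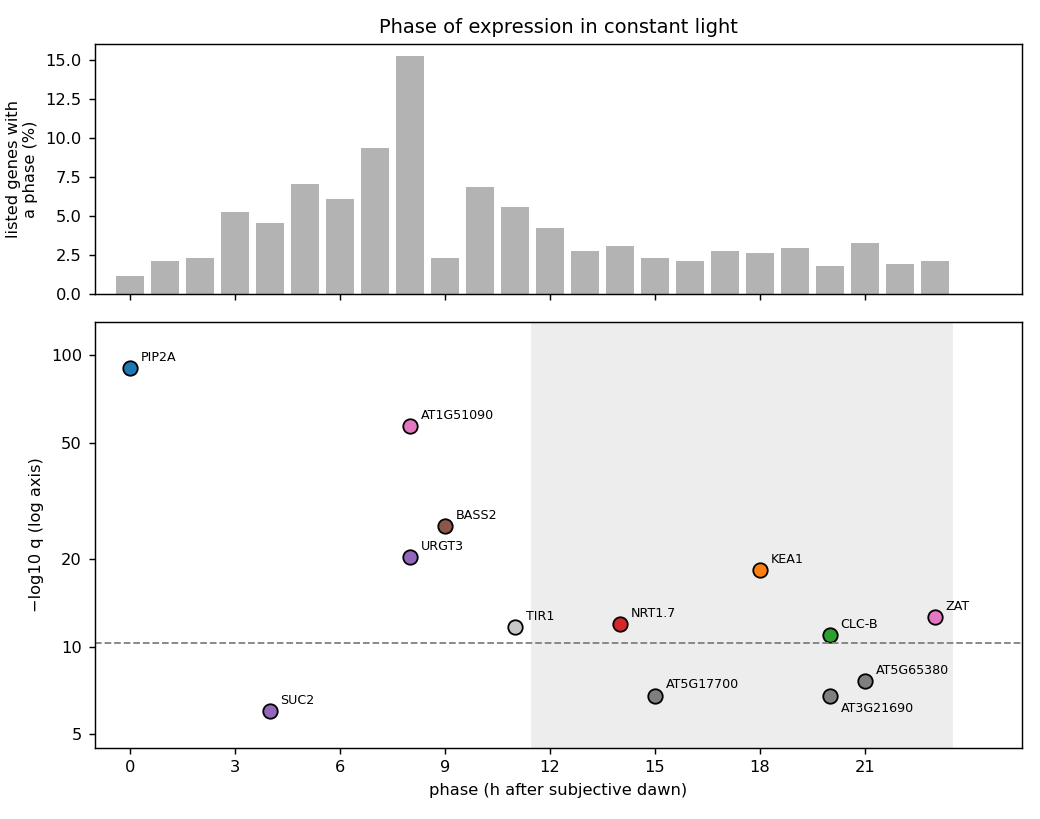
The upper panel gives the percentage of the 610 listed genes with a phase at each hour after subjective dawn, and the lower panel the −log10 q (log axis) of the 13 of the 31 genes with a phase (TIR1 and AT1G51090 move no solute themselves), coloured by substrate class. The shaded hours are 12 to 23 h, where the 7 genes lie between 6.80 and 18.3, and the dashed line is the median of all listed genes.

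Peaks at genes with a day phase had a higher median strength than those at genes with a night phase. With a phase from 0 to 11 h, PIP2A (0 h), AT1G51090 (8 h), BASS2 (9 h), URGT3 (8 h), TIR1 (11 h) and SUC2 (4 h) had values of 90.4, 57.1, 26.0, 20.3, 11.7 and 6.0. With a phase from 12 to 23 h, KEA1 (18 h) had 18.3, ZAT (23 h) 12.7, NRT1.7 (14 h) 11.98 and CLC-B (20 h) 10.9, and the MATE genes AT5G65380, AT3G21690 and AT5G17700 had 7.60, 6.80 and 6.80. The medians were 23.1 for the 6 day genes and 10.9 for the 7 night genes, and the 2 ranges overlap. All listed genes showed medians of 14.1 for the 414 with a day phase and 10.3 for the 196 with a night phase, so an order in the same direction holds over the whole list. The 18 genes without a phase had a median of 11.3. By substrate, the night phases were those of potassium, zinc, anion and nitrate transporters and of MATE proteins. Day phases were given for the water channel, both sugar transporters with a phase, the plastid pyruvate carrier, a metal-binding protein and the auxin receptor.

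How often transporter genes as a whole were listed was counted in the reference annotation, where 414 nuclear protein-coding genes carry a word of the rule in their symbol or synonyms. Of these 414, 21 were listed (5.07%, exact 95% interval 3.17 to 7.65), against 5.38% of all 27444 nuclear protein-coding genes. The share of transporter genes with a listed peak was therefore near the background. The 21 comprised 16 of the 31 genes and 5 others, GPT2, NRAMP3, GTR1, ANTR2 and the protein kinase gene CIPK15. The remaining 15 of the 31 have no such word in the reference, so this count rests on other names than the rule did. With a peak in the promoter window the shares were 2.66% (exact 95% interval 1.33 to 4.70) and 3.83%, which lies inside that interval.

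Counted by family name, 33 of 532 transporter, channel and pump genes were listed (6.20%, exact 95% interval 4.31 to 8.60), also near 5.38%. They fell into 21 of the 42 families for which the annotation held a name. Only 10 of the 33 are among the 31 genes, since the authors' names of the others hold no word of the rule. The other 21 families had 0 listed genes, among them the CNGC cation channels (0 of 20), the ZIP metal transporters (0 of 18, in which ZTP29 is not counted because it carries no ZIP symbol), the potassium transporters of the KUP family (0 of 12), the sulfate transporters SULTR (0 of 12) and the PIN auxin carriers (0 of 8). DTX, a name of MATE efflux proteins, also had 0 of 3 listed. The 5 MATE genes described above were not matched by that name and are not counted there. An exact interval for 0 of 8 reaches 36.9% and for 0 of 20 it reaches 16.8%, so these zeros are not shown to differ from the background.

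**Figure D4:**
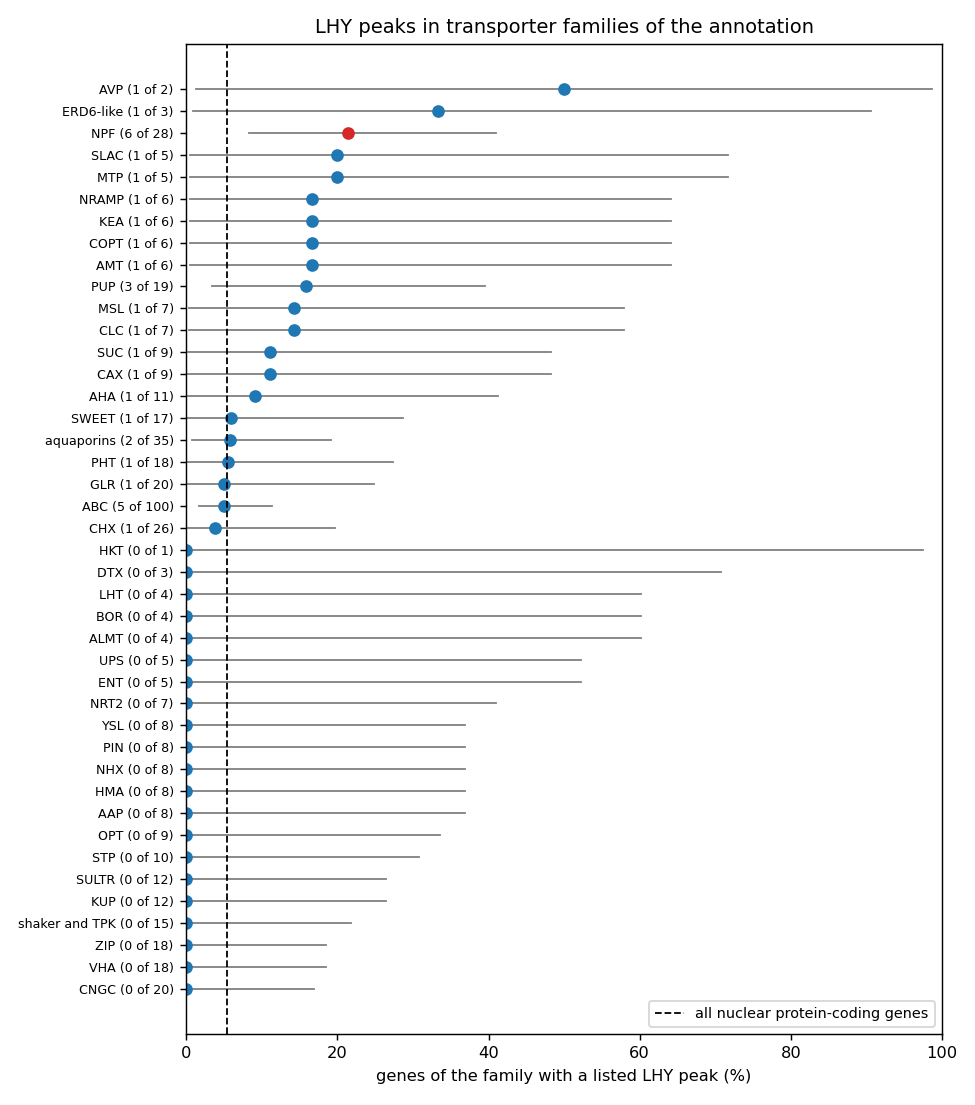
For each of 42 transporter families of the annotation, counted by gene name only, the point gives the percentage of genes with a listed LHY peak and the line its exact 95% interval, with the count of listed genes in parentheses. The dashed line is the share of all nuclear protein-coding genes, 5.38%, and NPF, in red, is the family whose interval lies above it.

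Counted by name, the family with the most listed genes was the NPF family of nitrate and peptide transporters, to which NRT1.1 (NPF6.3) and NRT1.7 (NPF2.13) belong. Of 28 genes that carry an NPF, NRT1 or PTR name in the annotation, 6 were listed (21.4%, exact 95% interval 8.30 to 41.0). This was the only one of the 42 families whose interval lay above 5.38%, and no test over the families was made. Beside both nitrate transporters the 6 included GTR1, a glucosinolate transporter (7.60 at −3863 bp, phase 17 h), and AT1G68570 (10.3 at −4322 bp, 18 h). AT2G26690 had 6.0 at −6752 bp and AT3G21670 had 7.60 at 59 bp downstream of the TSS, both with a phase of 21 h. These 4 are named as major facilitator proteins by the authors and are outside the rule. Of the 6 counted genes, 5 had a phase, NRT1.7 included, and all 5 phases lay between 14 and 21 h. Of the phases of all listed genes, 32.1% fall at 12 to 23 h. More than 1000 bp upstream lay 5 of the 6 peaks, against 30.8% of all listed genes. The family was singled out from 42 after its values were seen, so both counts are descriptions. The count covers only genes with such a name, and family members without one were not counted. The values of the 6 counted genes ran from 6.0 to 11.98.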

How the data were processed

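Per the submitters' processing notes, Bowtie, MACS2 2.0.10.09132012 and the TAIR9 build were used. Their parameters are not stated there. Per the file headers, the deposited table holds at most 4 peaks per gene with their −log10 q (another header line calls it −log10 of the p-value) and their position in bp from the TSS. Per the file headers, the authors took phases from the Diurnal database, keeping those that passed 0.8. Whether genes without a phase missed it or were not in the database is unknown. Per the labels' protocols, fixation used 1% formaldehyde for 10 min, and fragments were 100 to 1000 bp long.

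The 31 genes were found by a search of the 7 words in the deposited names, and each was put by hand into 1 of 11 substrate classes. Whether a product moves a solute was assigned along with the class and was not measured. Loci were matched to a TAIR10.1 gene table, in which all 31 were found. It was used for symbols, biotypes, family names and gene order, with no coordinate printed. Of the 43 families tried, 42 had a name in it, and gene names that only share letters with a family (thiamin pyrophosphokinase, thiolase and anthranilate synthase genes) were removed after they were seen. Aquaporin names were required to have the form PIP, TIP, NIP or SIP with 2 numbers, and CAT was not searched because it also names catalase. The genes and lists were chosen with earlier results of these data known. The rule for named genes took the 15 strongest, the strongest of each class, those with peaks downstream of the TSS and the 2 strongest in each 6 h of phase, and the others are given to account for each class. No test was made, as there is 1 library per group, and shares have exact Clopper-Pearson intervals at 95%. Motifs and promoter sequences were not analysed here. Parsing and intervals were tested on simulated data. Python 3.11.15, NumPy 2.4.6, SciPy 1.17.1 and matplotlib 3.10.9 were used.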

Additional observations from a re-analysis of the deposited data

How the results depend on the processing

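Of 42 alternative values, 37 stayed inside the exact 95% interval of the reported share or median, or within 1.5 times the reported count. Several of the 37 come from settings that could not change any value, named below, so this count overstates the stability. With 3000 bp upstream, the promoter share rose from 61.3% to 90.3%, since a wider window holds more peaks. The number of genes fell from 31 to 19 with peaks above the median of all listed genes and to 13 without genes whose −log10 q recurs, and rose to 62 when listed genes with a transport activity in their description were added. The median −log10 q rose from 11.7 to 18.3 in both of the smaller sets, in the first by construction, while for the second the cause was not tested. The share of annotated transporter genes fell from 5.07% to 2.66% when a peak in the promoter window was required. The share of all nuclear protein-coding genes then fell from 5.38% to 3.83%. Restricting the genes to the 21 products that move a solute gave 52.4% with a phase and 18.2% of phases at 6 to 11 h, both among the 37. Their share at 18 to 23 h, 45.5%, was not among the 42 values. Its interval did not hold the 14.8% of all listed genes, whereas the interval for the 31 genes did. Neither interval was adjusted for the number of phase ranges examined. Without the NPF family 5.36% of the other family genes were listed. Keeping only protein-coding genes, counting shared peaks or tandem genes once, or using the peak closest to the TSS changed nothing. These settings could not change a value. All 31 genes are protein-coding, no 2 of them lie within 5 places of each other and each has 1 peak. The settings that added genes by description, left out recurring values or left out the NPF family were chosen after seeing the data. The motif setting was not run, because promoter sequences were not analysed here. The unknown depth and the lack of replicates limit every value. No paired analysis was possible because only 1 library was made per group.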

Other observations

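A further 31 listed genes have a transporter, channel or related activity in the authors' functional description but no word of the rule in their name. Their median −log10 q was 10.07, and 19 of the 31 (61.3%) had their strongest peak in the promoter window. The strongest were OEP16-1, a pore protein of the outer plastid envelope (35.4 at 0 bp, phase 11 h), the anion channel gene SLAH2 (32.4 at −343 bp) and FRD3, a citrate exporter of the MATE family needed for iron transport (28.7 at −2574 bp). The plastid phosphate exchangers GPT2 and APE2 were present too. GPT2, which exchanges glucose 6-phosphate for phosphate, had 20.6 at −1778 bp with a phase of 19 h. APE2, the triose phosphate translocator, had 10.0 at 171 bp downstream of the TSS with no phase. ANTR2, which carries the family name PHT4;4, had 20.2 at −63 bp with 15 h. Of the 16 with a phase, 7 (43.8%, exact 95% interval 19.8 to 70.1) fell at 12 to 23 h, and the interval holds the 32.1% of all listed genes. The descriptions also took genes not named as membrane transporters. Among the 16 these include the lipocalin TIL (4 h), the haemoglobin HB2 (6 h), PATL2 (7 h), AT4G30940 (4 h) and AT2G21520 (10 h), all with day phases.

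Pumps and purine permeases found by family name were also listed. AVP1, the proton-pumping pyrophosphatase of the vacuole, had 58.9 at −2250 bp with a phase of 13 h, and HA1, a proton pump of the plasma membrane, had 5.23 at −5422 bp, also with 13 h. Of 19 purine permease genes 3 were listed (15.8%, exact interval 3.38 to 39.6, which holds the 5.38% of all nuclear protein-coding genes). They were PUP10 (12.4 at −102 bp, 1 h), PUP1 (12.2 at −3175 bp, 12 h) and PUP18 (10.3 at −1579 bp, 5 h). These genes were named after their values were seen.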
